A study of Mus musculus with 10 samples.

Results

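Lesional and uninvolved skin were compared in the mice labelled IL-17C+KO, which gave 4 of the 10 RNA sequencing libraries of the series and are 2 of its 5 mice. The 4 libraries were chosen by their titles, as all those titled IL-17C+KO involved or IL-17C+KO uninvolved, and the number in the title ties a lesional and an uninvolved biopsy to mouse 2392 and another pair to mouse 2465. All 5 mice are of the strain C57Bl/6 and carry the IL-17C transgene, so that no group here lacks it. Neither the labels nor the design text names the promoter that drives the transgene. By the series title, the KO mice also lack interleukin-6 (Il6), and the other 3 mice (2237, 2275 and 2296) are labelled IL-17C+ alone. The mice were either 10 or 14 weeks old, and the age of each mouse is not given. Each biopsy was full-thickness dorsal skin, so that epidermis, hair follicles, dermis, fat, nerve and the thin muscle sheet under mouse skin can all contribute RNA. The study's title poses the question these libraries address, namely which inflammatory signals are present in lesions of the mice labelled as lacking Il6.

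Interleukin-17C is an epithelial cytokine of the interleukin-17 family. It acts back on keratinocytes through the receptor pair IL-17RA and IL-17RE and, through NF-kB and related pathways, induces chemokines, colony-stimulating factors and antimicrobial proteins. Psoriasis-like lesions combine these signals with rapid keratinocyte division, stress keratins, neutrophils in the epidermis and a remodelled dermis. Interleukin-6 belongs to a family of cytokines that share the receptor chain gp130 and signal through STAT3. Its relatives leukaemia inhibitory factor (Lif) and oncostatin M (Osm) use the same chain.

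The files listed 24358 gene symbols, of which 16083 passed the filter on low counts. The 4 libraries held 21483189 to 26344903 counts, so that a count of 0 allows a level of 0.114 to 0.14 CPM (counts scaled to library size). Levels below are CPM after TMM scaling, which are not divided by gene length, and wherever a pair of values is given the first belongs to mouse 2392 and the second to mouse 2465. A change is the fitted log2 difference, lesional minus uninvolved, for n = 2 mice. The value after ± is its standard error (SE), derived from the F statistic of edgeR's quasi-likelihood fit. That fit shares its estimate of spread over all 10 libraries, so the SE is not the spread of the 2 mice. For scarce genes it can understate counting error. Within a mouse, differences were taken between log2 CPM values to which a prior count of 2 had been added, which pulls those of scarce genes toward 0. Epidermal markers were abundant, as the label skin requires: Krt14 stood at 4384 and 1711 CPM in uninvolved skin and at 5449 and 8122 CPM in lesions.

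Il6 went against the genotype label. Uninvolved skin of the mice labelled IL-17C+KO held 71 and 55 Il6 counts and lesional skin 315 and 300. The uninvolved libraries of the 3 IL-17C+ mice held 4 to 9 counts and their lesional libraries 18 to 69. All 4 libraries of the labelled knockout were thus above 5 of the 6 IL-17C+ libraries, and the lesional ones above all 6. The counts are sums over the whole gene and do not show which exons the reads came from, so they do not check which part of the gene was deleted. Il6 was at 3.17 and 2.11 CPM in uninvolved skin and at 11.9 and 13.4 CPM in lesions, a change of 2.28 ± 0.56 with an adjusted p of 0.226 in edgeR's quasi-likelihood test. The transgene Il17c differed between the lesions of the pair of mice. Its level was 1901 and 535 CPM in uninvolved skin and 2347 and 10880 CPM in lesions, so the difference within a mouse was 0.30 in mouse 2392 and 4.35 in mouse 2465.

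Across the 16083 tested genes, 2 passed an adjusted p of 0.05 (0.0124% of the genes tested). Cxcl5, a neutrophil-attracting chemokine, rose (0.00622% of tested genes rose), and Csrp3, a Z-disc protein of striated muscle, fell (0.00622% fell). Every other gene below missed that threshold and is described by its values. Before adjustment 2166 genes (13.5%) had a p under 0.05, with 991 higher (6.16%) and 1175 lower (7.31%) in lesions. Of all tested genes 8066 (50.2%) had a positive and 8017 (49.8%) a negative change. Both lesional libraries lay above both uninvolved ones for 4255 genes (26.5%) and below them for 4493 (27.9%). DESeq2, run as an alternative on the same design, called 1157 genes (7.19%), 515 of them higher (3.20%) and 642 lower (3.99%). Below, the gene lists are described by how many members had an unadjusted p under 0.05 and by their median change, beside a median of 0.00 over all tested genes (-0.01 in mouse 2392 and 0.00 in mouse 2465).

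The pair of mice shared the direction of the difference for 10912 genes (67.8%), with Pearson's r of 0.554 and Spearman's rho of 0.488 across genes, which are not independent replicates. Mouse 2465 had the wider spread: the SD of its differences over genes was 1.56, against 0.867 in mouse 2392. A difference of more than 1 on the log2 scale in the same direction in both mice was found for 729 genes that were higher and 821 that were lower, and 266 genes differed by more than 1 in opposite directions. The lesional library of mouse 2465 was also the least like its own uninvolved partner, with a correlation of log CPM of 0.837, against 0.953 in mouse 2392. For the lists described below, medians by mouse are given where their signs differed.

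**Figure D1:**
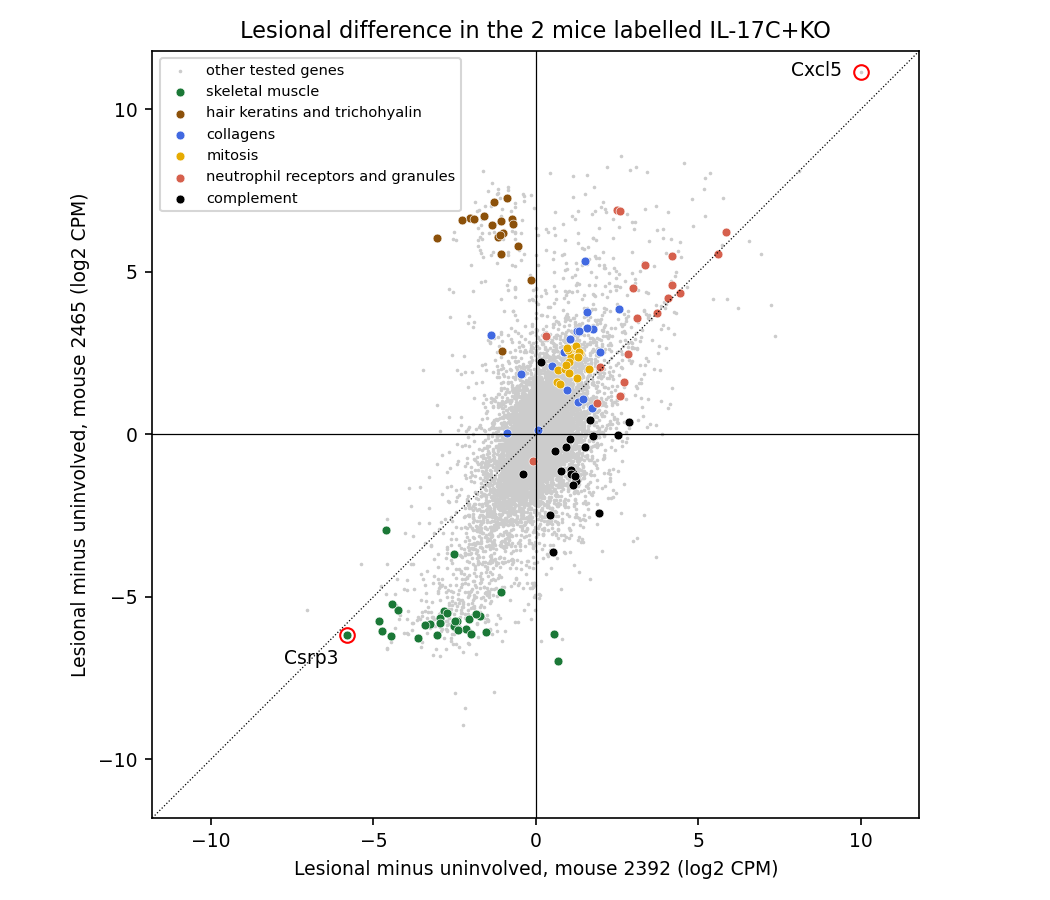
Difference between lesional and uninvolved skin (log2 CPM) of each tested gene in mouse 2392 (x axis) and mouse 2465 (y axis), both labelled IL-17C+KO. Coloured points are members of 6 gene lists and red rings mark Cxcl5 and Csrp3; skeletal muscle genes lie at the lower left, neutrophil and mitosis genes at the upper right, hair keratins are lower in 1 mouse and higher in the other, and most complement genes are the reverse.

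CXC chemokines that attract neutrophils were among the genes with the largest positive changes. Cxcl5 was at 0 and 0.0768 CPM (0 and 2 counts) in uninvolved skin and at 82.4 and 355 CPM (2184 and 7954 counts) in lesions. The libraries did not overlap, and the change was 12.33 ± 0.78 (adjusted p = 0.0288, edgeR). Because the uninvolved libraries held 2 counts in all, the size of the change is better read from the ratio of the summed counts, which was 5400 with an exact 95% interval of 1494 to 44600 that covers counting error only. Cxcl5 lies on chromosome 5 at 90759360 to 90761624, plus strand (GRCm38), beside the related genes Cxcl3, Cxcl1 and Cxcl2, all of which signal through the receptor Cxcr2. Cxcl3 was at 0.313 and 0.115 CPM in uninvolved skin and at 21.2 and 30.3 CPM in lesions (change 6.91 ± 0.69, adjusted p = 0.105). Cxcl2 was at 1.56 and 0.422 CPM in uninvolved skin and at 68.0 and 131 CPM in lesions (change 6.74 ± 1.26). Cxcl1 was at 8.81 and 1.92 CPM in uninvolved skin and at 116 and 260 CPM in lesions (change 5.36 ± 0.88). For each of these genes every lesional library stood above every uninvolved one, and for Cxcl3, Cxcl2 and Cxcl1 the larger difference was in mouse 2465. For Cxcl5 the mice could not be ordered, since the uninvolved library of mouse 2392 held 0 counts. Of the 12 tested CXC chemokines, 6 had an unadjusted p under 0.05 and a higher level, none a lower one, and the list median was 1.18. Cxcl12, a chemokine made by stromal cells, was at 131 and 154 CPM in uninvolved skin and at 381 and 300.0 CPM in lesions. Cxcl13, which attracts B cells, split the mice: it went from 70.8 to 179 CPM in mouse 2392 and from 128 to 6.69 CPM in mouse 2465.

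The promoters of the 3 neighbouring chemokines that the promoter table held are shown because their genes moved together. Each is the 250 bases before the start of the gene in RefSeq on GRCm38.p6, and the capitals mark matches to the kappaB motif that binds NF-kB, searched on both strands. In each promoter 2 overlapping matches form the same run of letters, beginning 71 bases before the start in Cxcl1, 97 in Cxcl2 and 73 in Cxcl3. The bases after the start were found in a GENCODE M21 transcript for Cxcl1 and Cxcl2 but not for Cxcl3, so the distance in Cxcl3 is less certain. The windows are chr5:90890995-90891244, chr5:90903649-90903898 and chr5:90785851-90786100, all on the plus strand.
Cxcl1: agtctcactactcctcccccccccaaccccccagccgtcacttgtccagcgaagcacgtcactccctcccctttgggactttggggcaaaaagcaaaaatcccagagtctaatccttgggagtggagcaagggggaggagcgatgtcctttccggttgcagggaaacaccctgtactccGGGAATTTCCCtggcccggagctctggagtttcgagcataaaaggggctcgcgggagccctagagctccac
Cxcl2: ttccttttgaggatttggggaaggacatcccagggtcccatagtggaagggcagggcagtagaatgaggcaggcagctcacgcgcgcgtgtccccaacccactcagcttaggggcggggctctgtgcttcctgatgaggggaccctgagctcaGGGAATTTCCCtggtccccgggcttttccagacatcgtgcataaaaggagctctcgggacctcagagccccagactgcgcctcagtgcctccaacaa
Cxcl3: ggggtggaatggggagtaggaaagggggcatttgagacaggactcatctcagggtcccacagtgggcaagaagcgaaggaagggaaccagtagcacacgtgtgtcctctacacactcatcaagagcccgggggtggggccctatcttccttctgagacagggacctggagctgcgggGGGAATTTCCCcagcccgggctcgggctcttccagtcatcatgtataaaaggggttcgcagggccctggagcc
The same motif was found in 1014 of 27025 promoters of this length (3.75%), and in 550 of the 12041 that belong to tested genes (4.57%). Among the 15 genes with the highest changes, 9 had a promoter in the table and 4 of those held it (Cdhr1, Cxcl2, Cxcl3 and Il19). A match describes the letters of the sequence and is not evidence of binding.

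**Figure D2:**
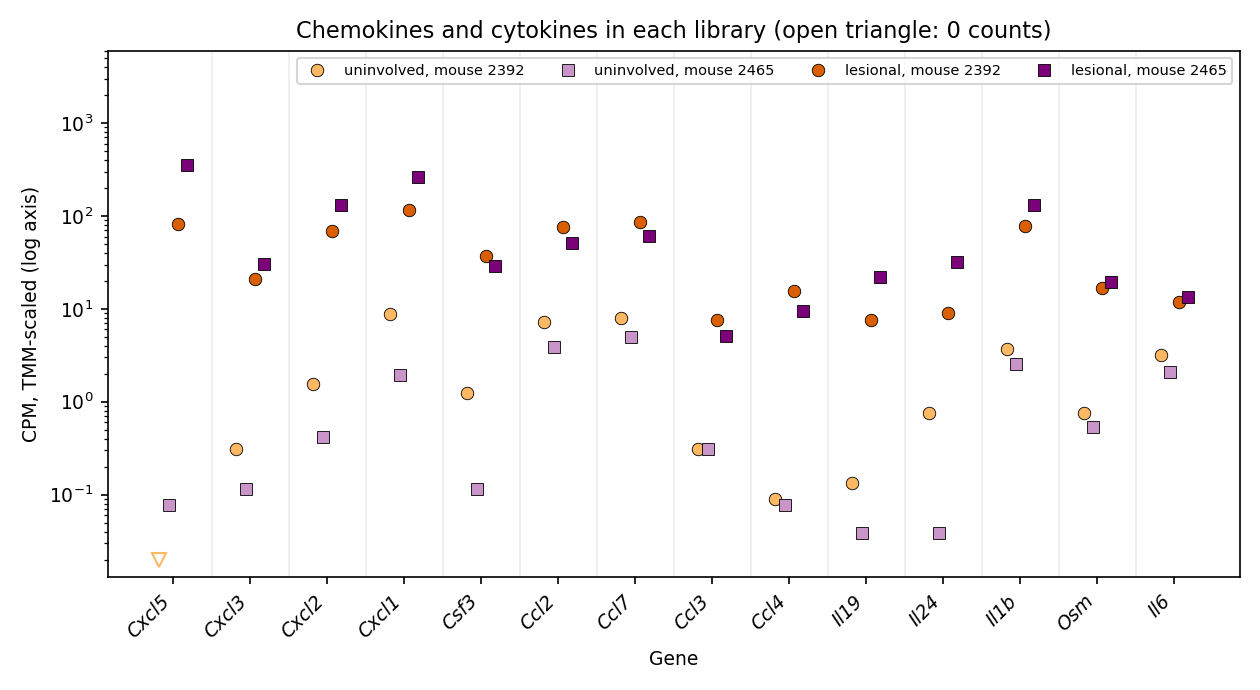
Level of 14 chemokine and cytokine genes in each of the 4 libraries labelled IL-17C+KO, in TMM-scaled CPM on a log axis; circles are mouse 2392, squares are mouse 2465, pale symbols uninvolved skin and dark symbols lesions, and an open triangle marks 0 counts. For every gene shown the lesional libraries lie above both uninvolved libraries.

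The CC chemokines Ccl2 and Ccl7 were higher with nearly the same difference in both mice, while others of the family parted by mouse. Ccl2, which recruits monocytes through Ccr2, was at 7.20 and 3.91 CPM in uninvolved skin and at 75.3 and 51.8 CPM in lesions. Its differences within mice were 3.37 and 3.70, and its change was 3.55 ± 0.33 (adjusted p = 0.0886). Ccl7, its neighbour on chromosome 11, was at 7.91 and 5.03 CPM in uninvolved skin and at 87.0 and 61.3 CPM in lesions (change 3.53 ± 0.43, adjusted p = 0.165). Both genes were thus about equally high in the lesions of the pair of mice, with no overlap. Ccl4, a chemokine of activated myeloid cells, was near the limit of detection in uninvolved skin at 0.0894 and 0.0768 CPM and at 15.7 and 9.50 CPM in lesions. Ccl3, its close relative, was at 0.313 and 0.307 CPM in uninvolved skin and at 7.66 and 5.08 CPM in lesions. Of the 19 CC chemokines tested, 6 were higher and 1 was lower at an unadjusted p under 0.05. The median was 0.43, with 0.76 in mouse 2392 and -0.37 in mouse 2465. The lower member was Ccl27a, a keratinocyte chemokine for skin-homing T cells, at 20.6 and 36.8 CPM in uninvolved skin and 7.88 and 4.64 CPM in lesions. For 7 members mouse 2392 was higher in the lesion and mouse 2465 lower. Among them was Ccl6, a myeloid chemokine, at 161 and 192 CPM in uninvolved skin and 790 and 71.0 CPM in lesions, with Ccl8 and Ccl9 in the same pattern.

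Colony-stimulating factors act on the myeloid lineage, and Csf3 (G-CSF), which drives neutrophil production, led this list. Csf3 was at 1.25 and 0.115 CPM in uninvolved skin and at 37.1 and 29.1 CPM in lesions, a change of 6.07 ± 0.83 (adjusted p = 0.169). Its receptor Csf3r, carried by neutrophils, was at 3.31 and 3.38 CPM in uninvolved skin and at 29.3 and 41.2 CPM in lesions. Of 10 tested members, 5 were higher and 1 lower at an unadjusted p under 0.05, with a median of 0.87.

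Relatives of interleukin-6 were higher in lesions of both mice. Osm, made mainly by myeloid cells, was at 0.76 and 0.537 CPM in uninvolved skin and at 16.7 and 19.5 CPM in lesions (change 4.81 ± 0.59, adjusted p = 0.165). Lif was at 5.68 and 2.03 CPM in uninvolved skin and at 24.8 and 49.8 CPM in lesions (change 3.35 ± 0.86). Socs3, a feedback inhibitor induced by STAT3, was at 59.8 and 37.2 CPM in uninvolved skin and at 145 and 278 CPM in lesions (change 2.09 ± 0.53). For all 3 genes the lesional libraries lay above the uninvolved ones. Of 16 tested members of the IL-6 family and its feedback, 6 were higher and 1 lower at an unadjusted p under 0.05, with a median of 0.60. The IL-20 subfamily acts on keratinocytes and also signals through STAT3. Il19 was at 0.134 and 0.0384 CPM in uninvolved skin and at 7.54 and 22.1 CPM in lesions (change 7.22 ± 0.90, adjusted p = 0.165). In summed counts Il19 was 185 times higher in lesions (95% interval 72.0 to 681). Il24 was at 0.76 and 0.0384 CPM in uninvolved skin and at 8.94 and 31.6 CPM in lesions (change 5.71 ± 1.33). The wider IL-10 and IL-20 list had no common direction, with a median of -0.01 (0.03 in mouse 2392 and -0.04 in mouse 2465). Its member Il22ra2, a soluble receptor that binds interleukin-22, was lower, at 69.2 and 47.9 CPM in uninvolved skin and 13.7 and 0.892 CPM in lesions.

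The IL-1 group followed the chemokines. Il1b was at 3.71 and 2.57 CPM in uninvolved skin and at 78.1 and 132 CPM in lesions (change 5.03 ± 1.14). The alarmin Il33 was at 61.2 and 42.1 CPM in uninvolved skin and at 154 and 218 CPM in lesions, and the receptor Il1r1 at 41.3 and 49.0 CPM and at 149 and 132 CPM. Of 12 tested members 5 were higher and none lower at an unadjusted p under 0.05, with a median of 0.65. The T-cell cytokines Il17a, Il17f, Il22 and Ifng were scarce. Il17a held 0 and 0 counts in uninvolved skin and 1 and 0 in lesions, Il22 held 0 and 0 and then 4 and 0, and Ifng held 0 and 2 and then 0 and 3. Il17f held 1 and 1 counts in uninvolved skin and 6 and 5 in lesions, higher in both mice. None of the 4 passed the filter on low counts, so none was tested. Il23a was high in 1 lesion: it went from 0.76 to 1.77 CPM in mouse 2392 and from 0 to 19.6 CPM in mouse 2465. Il4ra, the receptor chain shared by interleukins 4 and 13, was at 92.8 and 77.0 CPM in uninvolved skin and at 317 and 219 CPM in lesions (change 1.64 ± 0.28). It does not stand for the type 2 cytokine list, which had 2 members higher and 3 lower of 10 tested at an unadjusted p under 0.05. The median of that list was 0.55. Tslp (change -1.44 ± 0.42) and Il31ra (change -3.13 ± 1.14) were lower in both mice.

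Growth factors and lipid mediators differed by member. Areg, an EGF receptor ligand made by stressed keratinocytes, was at 9.12 and 4.61 CPM in uninvolved skin and at 28.5 and 112 CPM in lesions. The ligands Btc and Egf were lower: Egf was at 20.5 and 29.2 CPM in uninvolved skin and at 4.22 and 0.713 CPM in lesions. The EGF family as a whole had 1 higher and 2 lower of 13 tested members at an unadjusted p under 0.05, with medians of -0.23 in mouse 2392 and 0.66 in mouse 2465. Ptgs2, the inducible cyclooxygenase, was at 3.58 and 1.65 CPM in uninvolved skin and at 48.6 and 134 CPM in lesions (change 5.03 ± 0.85). Of 22 tested prostaglandin and leukotriene genes, 5 were higher and 1 lower (Ptger3, change -1.70 ± 0.54) at an unadjusted p under 0.05. The list median was 0.09, with 0.21 in mouse 2392 and -0.17 in mouse 2465. Inhba, the activin A subunit, was at 0.224 and 0.23 CPM in uninvolved skin and at 2.87 and 12.2 CPM in lesions (change 4.74 ± 0.69). Of 17 tested TGF-beta and activin genes, 4 were higher and 1 lower (Ctgf, change -1.44 ± 0.34) at an unadjusted p under 0.05, with a median of 0.37.

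Several acute-phase and antimicrobial genes were high in both lesions. Saa3, a serum amyloid made in inflamed tissue, was at 3.53 and 4.53 CPM in uninvolved skin and at 980 and 1257 CPM in lesions. Its differences of 8.08 and 8.09 were among the 6 most alike between the mice, and its change was 8.11 ± 1.44 (adjusted p = 0.193). Its promoter, chr7:46715677-46715926 on the minus strand, is shown because Saa3 was among the 15 genes with the highest changes. The capitals mark its match to the C/EBP motif (TTGCNNAA on either strand), and no kappaB match was found in it. The C/EBP motif was found in 2582 of all promoters (9.55%) and in 987 of the 12041 that belong to tested genes (8.2%).
Saa3: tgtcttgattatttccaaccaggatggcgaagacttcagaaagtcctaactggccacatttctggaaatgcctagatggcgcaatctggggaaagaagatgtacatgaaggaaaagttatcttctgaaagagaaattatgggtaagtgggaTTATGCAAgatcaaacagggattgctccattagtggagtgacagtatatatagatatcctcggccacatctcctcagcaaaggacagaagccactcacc
Ptx3, a secreted pattern-recognition protein, was at 2.15 and 2.30 CPM in uninvolved skin and at 165 and 34.8 CPM in lesions. Lcn2, which withholds iron from bacteria, was at 71.8 and 21.9 CPM in uninvolved skin and at 595 and 256 CPM in lesions. Ptx3 and Lcn2 were higher in the lesion of mouse 2392 than in that of mouse 2465, and Saa3 was about equal in both. Of 14 tested members 7 were higher and 2 lower at an unadjusted p under 0.05, with a median of 1.73; 8 were higher in both mice, 2 lower in both, and 4 higher in mouse 2392 and lower in mouse 2465. S100a8, which forms calprotectin with S100a9, was at 293 and 19.2 CPM in uninvolved skin and at 1656 and 2311 CPM in lesions. The S100 and antimicrobial list had 9 higher and none lower of 22 tested members, with a median of 2.29, and it shares S100a8 and S100a9 with the neutrophil list. In it 14 members were higher in both mice, 2 higher only in mouse 2392 and 6 only in mouse 2465.

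In the epidermis, keratins of wounded and hyperproliferative skin were higher in lesions, and genes of the cornified envelope went both ways. Krt6b was at 326 and 54.3 CPM in uninvolved skin and at 2719 and 5044 CPM in lesions (change 4.80 ± 1.15). Krt6a was at 746 and 180 CPM in uninvolved skin and at 3181 and 6704 CPM in lesions, and its partner Krt16 at 969 and 124 CPM and at 2880 and 4677 CPM. The uninvolved skin of mouse 2392 already held more of these keratins and of S100a8 than that of mouse 2465, while its lesion held less, so the difference was smaller in mouse 2392 (list medians 0.99 and 3.86). Of the 6 stress keratins tested 3 were higher at an unadjusted p under 0.05, and 4 did not overlap between groups. Krt10, a keratin of the spinous layer, was at 8795 and 6984 CPM in uninvolved skin and at 4788 and 1323 CPM in lesions. Of 9 basal and spinous keratins tested, 2 were lower and none higher at an unadjusted p under 0.05, with a median of -1.54. In that list 6 members were lower in both mice and 1 (Krt14) was higher in both. The other 2 (Krt1 and Krt5) were lower in the lesion of mouse 2392 and higher in that of mouse 2465. Lor (loricrin), the main protein of the cornified envelope, was at 2977 and 1886 CPM in uninvolved skin and at 1146 and 234 CPM in lesions. Flg2, a filaggrin relative of the granular layer, was at 700.0 and 657 CPM in uninvolved skin and at 165 and 20.4 CPM in lesions (change -3.54 ± 1.05). Lor and Flg2 do not stand for the whole cornified envelope list, which had 3 members higher and 3 lower of 20 at an unadjusted p under 0.05. Its median was positive, 1.14 (0.07 in mouse 2392 and 2.23 in mouse 2465), and for 10 of the 20 both lesional libraries lay above both uninvolved ones. DESeq2 called 5 higher and 3 lower. Lce3a, from the late cornified envelope group linked to barrier repair, was at 19.0 and 0.576 CPM in uninvolved skin and at 66.8 and 29.2 CPM in lesions. Kallikreins are proteases that shed corneocytes, and 7 of 14 listed kallikreins and inhibitors were higher, none lower, with a median of 1.36. Spink12, a Kazal-type protease inhibitor, was second to Cxcl5 among the genes named for the size of their change, at 0.0447 and 0.0384 CPM in uninvolved skin and 4.53 and 28.0 CPM in lesions (change 8.32 ± 1.84).

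Genes of dividing cells were higher in the lesions of both mice. All 20 mitosis genes had both lesional libraries above both uninvolved ones, 16 of them with an unadjusted p under 0.05, and the median was 1.78 (1.06 in mouse 2392 and 2.38 in mouse 2465). Tpx2, a spindle assembly factor, was at 13.7 and 9.40 CPM in uninvolved skin and at 33.8 and 50.1 CPM in lesions (change 1.86 ± 0.44). Plk1, a mitotic kinase, was at 7.91 and 4.83 CPM in uninvolved skin and at 18.7 and 32.3 CPM in lesions. All 20 genes of S phase stood apart in the same way, 11 with an unadjusted p under 0.05, with a median of 1.12. Mcm3, a subunit of the replicative helicase, was at 22.2 and 15.04 CPM in uninvolved skin and at 43.5 and 50.9 CPM in lesions. DESeq2 called 11 of the mitosis genes and 6 of the S phase genes, all higher. The unfolded protein response, which serves secretion, had 7 of 17 members higher and none lower at an unadjusted p under 0.05, with a median of 0.999 (0.49 in mouse 2392 and 1.44 in mouse 2465), and DESeq2 called 0. Ribosome biogenesis genes had a median of 0.59 with 13 of 16 not overlapping, and none had an unadjusted p under 0.05.

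Genes of the dermal matrix were higher in lesions. Of 19 collagen genes 15 were higher and none lower at an unadjusted p under 0.05, with a median of 1.70 (1.28 and 2.54). Col3a1, a fibrillar collagen, was at 694 and 828 CPM in uninvolved skin and at 4042 and 11880 CPM in lesions (change 3.19 ± 0.78). Col5a3 was at 40.5 and 37.5 CPM in uninvolved skin and at 159 and 218 CPM in lesions (change 2.26 ± 0.42). Col12a1, a collagen that sits on fibrils, was much higher in mouse 2465, at 41.4 and 36.7 CPM in uninvolved skin and 117 and 1488 CPM in lesions. Tnc (tenascin C), a matrix protein of wounds, was at 41.5 and 18.1 CPM in uninvolved skin and at 700 and 2081 CPM in lesions (change 5.46 ± 0.93). The provisional matrix list had 11 of 18 higher and none lower, with a median of 1.57. Among proteases and their inhibitors 16 of 24 were higher and 1 lower, with a median of 1.76. Mmp13, a collagenase, was at 1.25 and 0.154 CPM in uninvolved skin and at 31.5 and 75.7 CPM in lesions (change 6.41 ± 1.44). Mmp3 (stromelysin 1) was at 19.7 and 21.4 CPM in uninvolved skin and at 216 and 271 CPM in lesions. Timp1, an inhibitor of these proteases, was at 5.45 and 4.34 CPM in uninvolved skin and at 139 and 102 CPM in lesions (change 4.61 ± 0.54, adjusted p = 0.165). DESeq2 called 13 of the collagens and 13 of the protease list, all higher. Tnfaip6, which crosslinks hyaluronan, was at 26.9 and 13.5 CPM in uninvolved skin and at 120 and 110 CPM in lesions. The fibroblast receptor Pdgfra was at 62.3 and 92.5 CPM in uninvolved skin and at 171 and 245 CPM in lesions. The endothelial selectins that capture leukocytes were higher too: Selp was at 24.6 and 15.1 CPM in uninvolved skin and at 102 and 100.1 CPM in lesions, and Sele at 9.34 and 8.52 CPM and at 44.8 and 71.6 CPM. The endothelial list had 7 of 21 higher and none lower, with a median of 0.33.

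Neutrophil genes made the list with the highest median fitted change, 3.87 (2.99 in mouse 2392 and 4.18 in mouse 2465). Of 19 members 17 had an unadjusted p under 0.05 and a higher level, 18 did not overlap in that direction, and DESeq2 called 15. Trem1, an amplifying receptor of neutrophils and monocytes, was at 0.402 and 0.422 CPM in uninvolved skin and at 27.5 and 37.6 CPM in lesions (change 6.27 ± 1.24). Clec4d, a myeloid lectin receptor, was at 2.10 and 0.729 CPM in uninvolved skin and at 39.5 and 36.5 CPM in lesions (change 4.90 ± 0.91). Fpr2, a formyl peptide receptor, was at 0.581 and 0.652 CPM in uninvolved skin and at 8.64 and 9.54 CPM in lesions (change 3.87 ± 0.61). The exception was Il1r2, the decoy interleukin-1 receptor, at 68.0 and 95.02 CPM in uninvolved skin and 64.4 and 53.6 CPM in lesions. In bulk skin, more cells of a type and more RNA per cell cannot be told apart, and this holds for every cell type described here.

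Macrophage genes divided by mouse. Of 23 members 10 were higher and none lower at an unadjusted p under 0.05, with medians of 1.80 in mouse 2392 and 0.37 in mouse 2465, and 10 members were higher in mouse 2392 and lower in mouse 2465. Msr1, a scavenger receptor, was higher in both, at 4.69 and 7.90 CPM in uninvolved skin and 40.6 and 22.3 CPM in lesions. Cd163 and Mrc1, receptors of resident macrophages, parted: Cd163 was at 64.5 and 82.2 CPM in uninvolved skin and at 238 and 26.5 CPM in lesions, and Mrc1 at 73.2 and 114 CPM and at 320 and 82.0 CPM. T-cell genes had medians of opposite sign in the mice, 0.20 in mouse 2392 and -1.15 in mouse 2465 (-0.35 for the fitted change), with 2 of 22 higher and 2 lower at an unadjusted p under 0.05. The 2 higher members were Ctla4, at 0.536 and 0.883 CPM in uninvolved skin and 2.15 and 2.05 CPM in lesions, and Icos, at 1.12 and 0.883 CPM and at 2.41 and 2.27 CPM. The 2 lower members were Skint1, at 30.9 and 15.2 CPM in uninvolved skin and 14.1 and 5.98 CPM in lesions, and Gata3, at 68.1 and 85.3 CPM and at 41.0 and 29.5 CPM. Neither is specific to T cells, and both stood above the T-cell chain Cd3e in every library, so their lower levels are not read as those of T cells. The defining T-cell chain Cd3e was low in every library, at 1.48 and 2.38 CPM in uninvolved skin and 0.528 and 0.58 CPM in lesions. Genes of MHC class II and antigen presentation had a median of -0.64, and 11 of 17 were lower in both lesions than in both uninvolved samples. At an unadjusted p under 0.05, 1 was higher and 2 were lower, and DESeq2 called 0. The higher member was Cd80, at 1.21 and 0.768 CPM in uninvolved skin and 3.02 and 4.06 CPM in lesions (change 1.85 ± 0.72). H2-Eb1, a class II chain, was at 187 and 249 CPM in uninvolved skin and at 127 and 114 CPM in lesions (change -0.84 ± 0.34).

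Complement and interferon genes showed the same parting more sharply. Among 20 complement genes 16 were higher in the lesion of mouse 2392 and lower in that of mouse 2465, and none the reverse, against 15.3% of all tested genes with that pattern and 16.6% with the reverse. The medians were 1.11 and -1.11. C3, the central complement component, went from 458 to 1743 CPM in mouse 2392 and from 1028 to 192 CPM in mouse 2465. Cfb, of the alternative pathway, went from 45.4 to 262 CPM in mouse 2392 and from 85.8 to 84.2 CPM in mouse 2465. Of 23 interferon response genes 18 had the same pattern, with medians of 0.72 and -0.81, and none had an unadjusted p under 0.05. This is not a difference between conditions. With 1 lesional and 1 uninvolved biopsy from each mouse, a difference between the mice cannot be told apart from one between single biopsies. Adipocyte genes, of which the complement list holds Cfd, moved the same way.

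**Figure D3:**
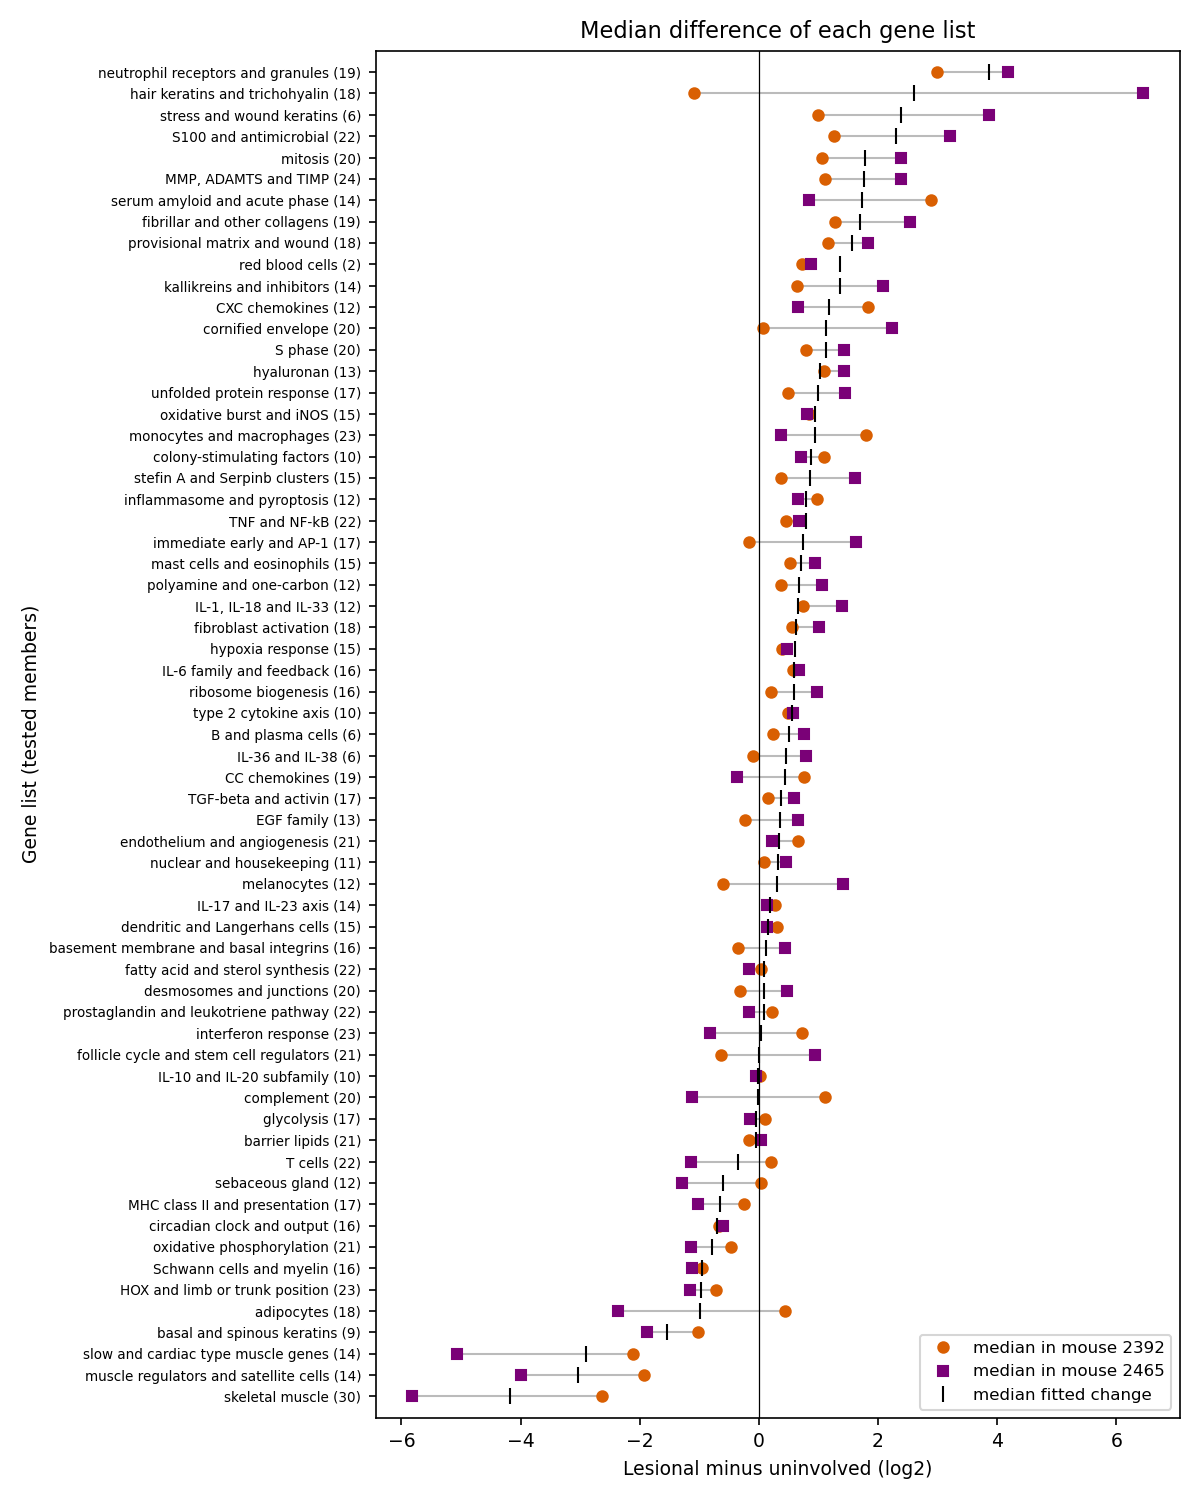
Median difference between lesional and uninvolved skin (log2) for each gene list with a tested member, with the number of tested members in brackets. Orange circles are mouse 2392, purple squares mouse 2465 and black ticks the median fitted change; by fitted change the neutrophil list is highest and the skeletal muscle list lowest, while in mouse 2465 alone the hair keratin list is highest, and that list has the widest gap between the mice.

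Skeletal muscle genes made the list with the lowest median fitted change. Mouse skin lies on a sheet of striated muscle, and the 30 listed genes took 4.72 and 7.84% of all counts in uninvolved skin and 0.822 and 0.17% in lesions. Of the 30 genes 27 were lower at an unadjusted p under 0.05, 28 did not overlap, DESeq2 called 24, and the median was -4.17 (-2.63 and -5.82). Csrp3 was at 1013 and 258 CPM in uninvolved skin and at 17.8 and 3.48 CPM in lesions, a change of -6.02 ± 0.45 (adjusted p = 0.0387, edgeR), and its differences of -5.82 and -6.18 were close in the pair of mice. Csrp3 lies on chromosome 7 at 48830398 to 48848033, minus strand (GRCm38). Ankrd2, a stretch-responsive muscle protein, was at 413 and 96.0 CPM in uninvolved skin and at 18.7 and 1.07 CPM in lesions (change -5.41 ± 0.71). Acta1, the skeletal actin, was at 9927 and 12500 CPM in uninvolved skin and at 797 and 162 CPM in lesions. Myh2, a fast oxidative myosin, was at 2638 and 2070 CPM in uninvolved skin and at 120 and 28.0 CPM in lesions. Myh4 and Actn3, of the fastest fibres, were the 2 members that overlapped: Myh4 was at 614 and 5285 CPM in uninvolved skin and at 983 and 41.7 CPM in lesions. Regulators of muscle and its stem cells were lower in all 14 tested cases without overlap, 9 of them at an unadjusted p under 0.05. Whether the biopsies differed in depth, in how much muscle was cut with them, or in muscle itself was not tested.

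The promoters of Csrp3 and Ankrd2 are shown because Csrp3 fell and Ankrd2 is another muscle gene among the 15 lowest changes. Capitals mark the E-box (CANNTG on either strand), the motif of the myogenic regulators, with 4 matches in Csrp3 (chr7:48848052-48848301, minus strand) and 3 in Ankrd2 (chr19:42035777-42036026, plus strand). No MEF2 or CArG match was found in these windows. The bases after the start were found in a GENCODE M21 transcript for Ankrd2 but not for Csrp3, so the window of Csrp3 is less certain.
Csrp3: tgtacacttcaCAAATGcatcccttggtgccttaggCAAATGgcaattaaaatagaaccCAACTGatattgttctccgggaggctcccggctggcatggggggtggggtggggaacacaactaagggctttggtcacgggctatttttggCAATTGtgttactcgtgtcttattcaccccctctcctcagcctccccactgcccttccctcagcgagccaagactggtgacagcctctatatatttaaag
Ankrd2: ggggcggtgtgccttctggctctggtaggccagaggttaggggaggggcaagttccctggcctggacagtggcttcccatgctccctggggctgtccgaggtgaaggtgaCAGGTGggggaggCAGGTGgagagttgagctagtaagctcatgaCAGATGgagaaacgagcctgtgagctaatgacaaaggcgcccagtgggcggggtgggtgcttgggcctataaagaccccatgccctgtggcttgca
E-boxes are short and common, found in 17848 of all promoters (66%). Among tested genes with an entry 7086 of 12041 held an E-box (58.8%), and among the skeletal muscle genes 17 of 22 (77.3%).

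Other genes outside immunity and epidermis were lower beside the muscle genes. All 21 oxidative phosphorylation genes were lower in both lesions than in both uninvolved samples, 7 at an unadjusted p under 0.05, with a median of -0.79. They include muscle isoforms such as Cox6a2, at 190 and 328 CPM in uninvolved skin and 28.9 and 7.85 CPM in lesions, and a gene of all cells such as Ndufb5, at 182 and 184 CPM and at 98.2 and 80.5 CPM. Genes of Schwann cells and myelin had 7 of 16 lower and none higher, with a median of -0.95. Circadian output genes had 5 of 16 lower, with a median of -0.70. Tef, a clock-controlled transcription factor, was at 112 and 145 CPM in uninvolved skin and at 42.2 and 22.2 CPM in lesions, and Dbp, its relative, at 14.0 and 14.4 CPM and at 6.6 and 1.38 CPM. Both biopsies of a mouse were taken after its death, per the labels' protocols, and the source of the circadian differences was not tested. The part of the muscle share in the differences of these lists was not tested either. Th, the enzyme that makes catecholamine precursors and marks sympathetic nerves, was at 11.7 and 16.5 CPM in uninvolved skin and at 0.415 and 0.0892 CPM in lesions (change -5.84 ± 0.96). Tceal7, a nuclear protein gene on the X chromosome, was at 40.2 and 27.8 CPM in uninvolved skin and at 0.226 and 0.58 CPM in lesions (change -6.43 ± 0.77, adjusted p = 0.165).

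Fat and hair follicle genes differed between the mice. Adipocyte genes had medians of 0.43 and -2.37, and took 0.681 and 1.01% of counts in uninvolved skin and 0.992 and 0.18% in lesions. Adipoq (adiponectin) was at 234 and 498 CPM in uninvolved skin and at 316 and 42.5 CPM in lesions. All 18 hair keratins and trichohyalin were lower in the lesion of mouse 2392 and higher in that of mouse 2465, with medians of -1.08 and 6.45. Krt71, a keratin of the inner root sheath of growing hairs, went from 10.8 to 4.15 CPM in mouse 2392 and from 7.98 to 704 CPM in mouse 2465. Tchh (trichohyalin) went from 12.3 to 7.43 CPM and from 6.91 to 613 CPM. The list took 0.00519 and 0.00408% of counts in uninvolved skin and 0.00266 and 0.317% in lesions, so that 1 lesional library held nearly all of these transcripts. Without mouse 2465 the list median was -1.19 and without mouse 2392 it was 6.46. The keratin-associated genes with the widest gap between the mice, such as Krtap1-4, belong to a family of near-identical copies and are uncertain. Immediate early genes had medians of -0.16 and 1.64, and Fos was at 71.3 and 103 CPM in uninvolved skin and at 141 and 1255 CPM in lesions.

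HOX genes, which record position along the body axis, were lower in lesions when their paralog number was high. The split at paralog 7 was made after the values were seen and carries no test. Of the 13 tested genes of paralogs 7 to 13, 8 were lower at an unadjusted p under 0.05 and 10 did not overlap, with a median of -2.31 (-1.21 and -3.44). Of the 17 tested genes of paralogs 1 to 6, 3 were lower and 5 did not overlap, with a median of -0.41. Hoxc9 was at 3.44 and 4.95 CPM in uninvolved skin and at 0.226 and 0.178 CPM in lesions (change -4.31 ± 0.57, adjusted p = 0.169), and the summed counts were 206 against 10, a ratio of 19.3 with a 95% interval of 10.3 to 40.9. Hoxa9 was at 5.19 and 5.53 CPM in uninvolved skin and at 0.83 and 0 CPM in lesions, and Hoxa7 at 13.3 and 16.2 CPM and at 3.09 and 0.49 CPM. Hoxb2 was at 10.95 and 11.05 CPM in uninvolved skin and at 10.1 and 12.6 CPM in lesions, with the groups overlapping. Hoxd10, although of a high number, was at 1.74 and 2.38 CPM in uninvolved skin and at 2.04 and 3.61 CPM in lesions. The labels do not say where on the back each biopsy was taken, and the part of biopsy position in these differences was not tested.

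**Figure D4:**
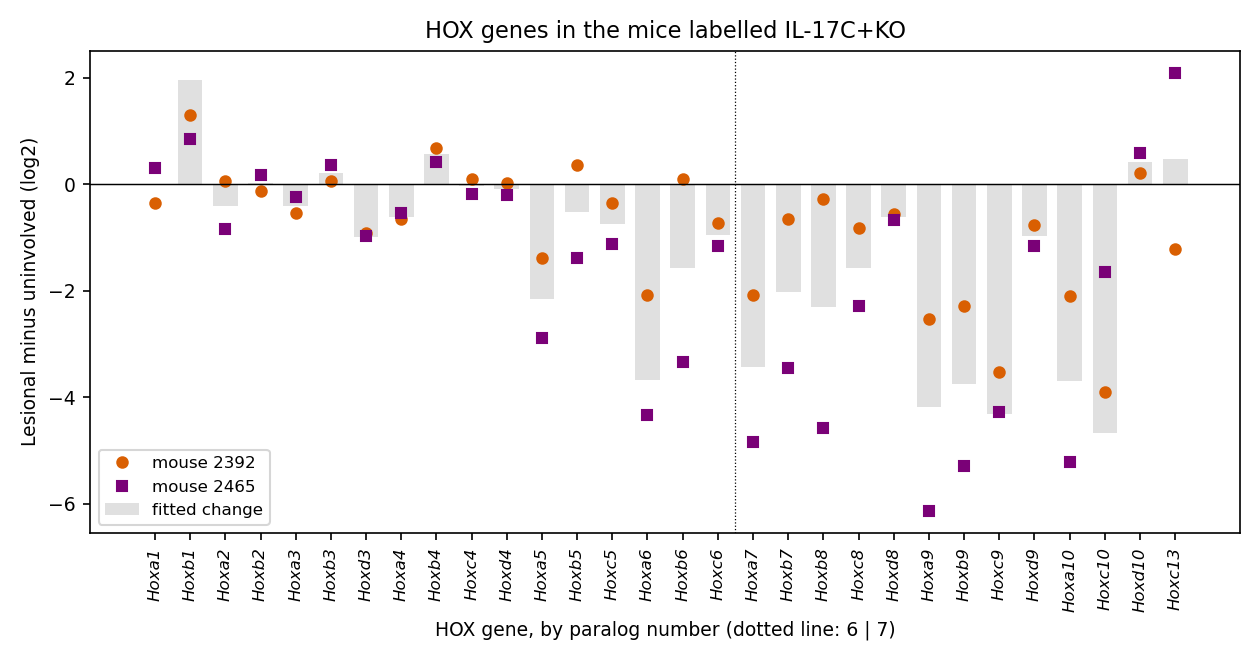
Difference between lesional and uninvolved skin (log2) of the 30 tested HOX genes in the mice labelled IL-17C+KO, ordered by paralog number with a dotted line between 6 and 7. Orange circles are mouse 2392, purple squares mouse 2465 and grey bars the fitted change; right of the line 11 of 13 fitted changes are negative.

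The lesional change was set beside that of the IL-17C+ mice within the same fit, where the 2 lesional effects rest on different mice. No gene passed an adjusted p of 0.05 for the difference (0 genes, 0%), with 188 genes at an unadjusted p under 0.05 (1.17%), while DESeq2 called 6. The 6 genes with the smallest p are described, each with an adjusted p of 1 in edgeR. Cxcl5 differed within mice by 3.89, 4.76 and 6.75 in IL-17C+ mice 2237, 2275 and 2296 and by 10.02 and 11.15 in the mice labelled IL-17C+KO (difference of the changes 6.01 ± 1.08). The last 2 within-mouse values depend on the prior count, since uninvolved skin of those mice held 0 and 2 Cxcl5 counts. The size of this difference between genotypes is therefore uncertain. Ccl2 differed by 0.89, 1.51 and 1.20 in IL-17C+ mice and by 3.37 and 3.70 in the others (2.34 ± 0.40). Ccl7 differed by 0.03, 1.27 and 1.36 and by 3.45 and 3.59 (2.63 ± 0.52). Each of these chemokines thus had the larger difference in both mice labelled IL-17C+KO, without overlap. Sox11, a developmental transcription factor, was at 0.134 and 0.345 CPM in uninvolved skin and at 3.51 and 4.06 CPM in lesions of the mice labelled IL-17C+KO, and the difference of the changes was 3.39 ± 0.71. On the lower side Csrp3 differed by -3.32, -4.35 and -3.40 in IL-17C+ mice and by -5.82 and -6.18 in the others (-2.32 ± 0.47), and Tceal7 by -0.71, -2.73 and -2.17 and by -7.04 and -5.40 (-4.53 ± 0.86). For Il6 the fitted change was 2.28 ± 0.56 in the mice labelled IL-17C+KO and 2.11 ± 0.53 in the IL-17C+ mice, and the difference of 0.17 ± 0.85 was smaller than its standard error.

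**Figure D5:**
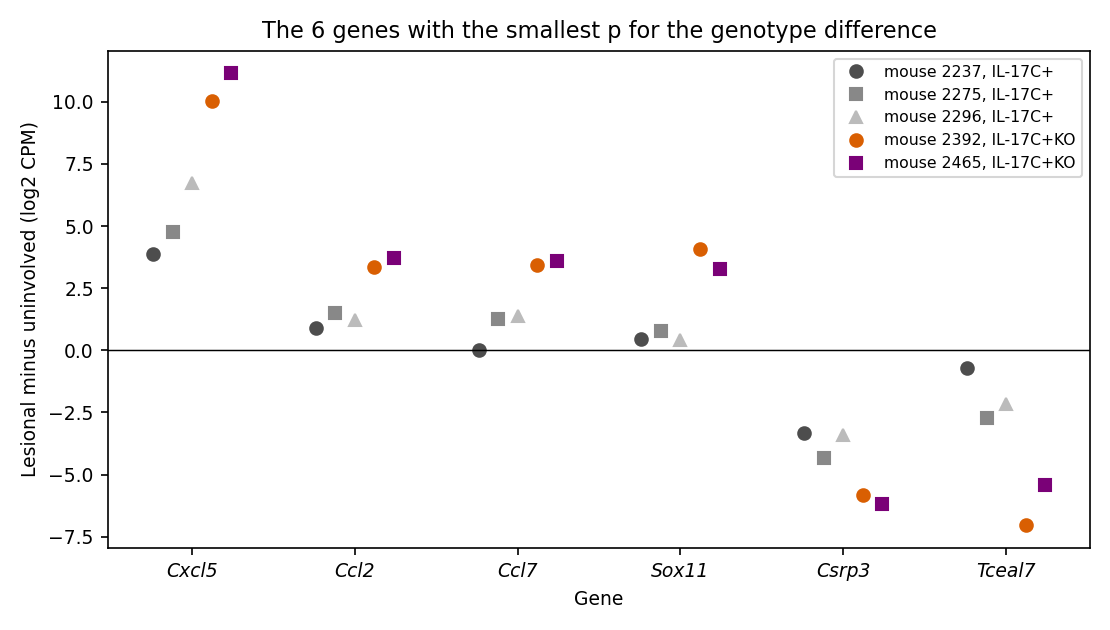
Difference between lesional and uninvolved skin (log2 CPM) in each of the 5 mice for the 6 genes with the smallest p for a genotype difference. Grey symbols are the 3 IL-17C+ mice and coloured symbols the 2 mice labelled IL-17C+KO; the genotypes do not overlap for these genes, which were picked for that contrast, and none passed the adjusted threshold.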

How the data were processed

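The 4 libraries labelled IL-17C+KO and the 6 labelled IL-17C+ were read from the deposited tables. Per the submitters' processing notes, cutadapt 1.6, TopHat2 2.0.12, HTSeq and Cufflinks 2.2.1 were used with the mm10 genome, in an order those notes do not give. Per the file headers, the tables have 1 row for each of 24358 gene symbols, with a count column and an FPKM column. The deposited counts were whole numbers and were taken as raw read counts, and the FPKM values, normalised by the authors to length and library size, served only 2 alternative fits. No label or header states the annotation, whether strand was used or how reads shared by gene copies were counted, so multigene families and overlapping genes are uncertain.

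Counts were tested in R 4.3.3 with edgeR 4.0.16 (filterByExpr, TMM scaling, robust quasi-likelihood fits). All 10 libraries entered 1 fit, blocked by mouse and with a separate lesional effect for each genotype, because the 4 libraries of interest alone leave too few residual degrees of freedom. Benjamini-Hochberg adjustment over 16083 genes was used with a threshold of 0.05. The genotype difference was a contrast of the same fit. The pairing comes from the mouse numbers in the labels and from the design text. Deviations of paired libraries from their group means correlated at -0.122 to 0.034 in IL-17C+ mice and at -0.072 in the mice labelled IL-17C+KO, where 2 mice necessarily share 1 value. The scripts were tested on simulated data.

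The members and the 64 gene lists were chosen with earlier results of these data known. Named are Il6 and Il17c, genes past the threshold, the 15 highest and 15 lowest changes among genes that average 2 CPM or more, have an unadjusted p under 0.05 and go 1 way in both mice, the 4 members of each list with the smallest p, further members of lists of at most 15, the 6 genes most alike and 6 most opposite between the mice with a mean of at least 10 CPM, the 6 with the smallest p for the genotype difference, and cell type markers. Named outside this rule, after their values were seen, are Actn3, C3, Ccl6, Ccl8, Ccl9, Ccl27a, Cd163, Col12a1, Hoxa9, Hoxb2, Hoxd10, Il1r2 and the untested Ifng, Il17a and Il17f. Coordinates are from GENCODE M21 and promoters from RefSeq (GRCm38.p6). Count ratio intervals are exact at the 95% level, and these and the limit of 3 counts for a 0 cover counting error only. Alternatives were other scalings and filters, limma-voom (limma 3.58.1), DESeq2 1.42.0, FPKM with pseudocounts of 1 and 0.1, no block, fewer libraries and leaving out each mouse.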

Additional observations from a re-analysis of the deposited data

How the results depend on the processing

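Against 2 genes past the threshold in lesional versus uninvolved skin, 5 passed with no low-count filter, 1157 with DESeq2, and 1 with limma on FPKM and a pseudocount of 1. With the skeletal muscle list removed, an alternative chosen after seeing the data, 1 (Cxcl5) passed. Csrp3 is on that list and was removed with it, so it could not pass there. Without the replicate block that pairs the biopsies of a mouse 0 passed (2704 at an unadjusted p under 0.05), and 0 passed in the 4 IL-17C+KO libraries alone with the block (2186). Leaving out each mouse in turn gave 0 to 11: 11 without mouse 2237, and 0 without mouse 2296 (1895 at an unadjusted p under 0.05), mouse 2392 (2276) or mouse 2465 (607). A lone remaining IL-17C+KO mouse is assumed to vary like the others. The adjusted p of Cxcl5 was 0.114 and that of Csrp3 0.121 without the replicate block, 0.181 for both in the 4 libraries alone, 0.0532 and 0.213 without mouse 2296, 0.107 and 0.158 without mouse 2392, and 0.453 and 0.627 without mouse 2465. That of Cxcl5 was 0.0874 on FPKM with a pseudocount of 1. No direction of these 2 genes changed. For the genotype difference, where edgeR called 0, DESeq2 called 6 genes, and the other alternatives run called 0. The median change of all genes was 0.114 and 0.165 in the FPKM fits with pseudocounts of 1 and 0.1, against 0.002 in the main fit. Without mouse 2465 the fitted change of 30 of 322 named genes changed sign, and without mouse 2392 that of 7. List medians that changed sign without mouse 2465 include those of adipocytes (0.43) and hair keratins (-1.19), and without mouse 2392 that of CC chemokines (-0.38). With 2 mice, scarce genes such as Cxcl5 in uninvolved skin and Il17a are limited by depth.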
